A study of Homo sapiens with 7 samples.

Results

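The 268 regions described here recur across the KMT2D and EBF2 ChIP-seq lists of SW1990 cells. SW1990 is an established line of human pancreatic cancer cells. They were chosen by a rule on the lists themselves. Overlapping intervals of the 4 lists (KMT2D and EBF2, each in NC and in KMT2D-KD cells) were merged into 506 regions, and the 268 with an interval from at least 2 lists were kept. The other 238 regions had an interval in 1 list only. NC cells carried a negative control shRNA, and KMT2D-KD cells carried an shRNA against KMT2D. The study describes its SW1990 knockdown line as stable, and the KMT2D level in the cells used for ChIP was not analysed here. H3K4me1 was profiled in the same conditions, and 1 input library served every list. Every target had 1 library in each condition. Each comparison of NC with KMT2D-KD therefore sets 1 library against another and has no replicate check and no test.

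KMT2D (MLL2) is a histone methyltransferase that places monomethyl marks on lysine 4 of histone H3 at enhancers. EBF2 is a transcription factor of the early B-cell factor family, best known for its part in brown and beige fat. H3K4me1, the mark that KMT2D places, is found mainly at enhancers. A tandem repeat is a stretch of DNA in which 1 unit is copied head to tail. Repeats of short units are called microsatellites or simple repeats, human chromosome ends are capped by a simple repeat of 6 bases, and long arrays of satellite DNA lie around the centromeres.

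The sequences under a few regions show the kinds of DNA among them. Windows of 150 bases around the summits (hg38, plus strand) are printed below for 2 of the 3 regions with the highest fold enrichments, the first in an intron of TRERF1 and the second in a non-coding exon of ANAPC7. Capitals mark uninterrupted copies of the unit AG, read on either strand.
chr6:42262429-42262578: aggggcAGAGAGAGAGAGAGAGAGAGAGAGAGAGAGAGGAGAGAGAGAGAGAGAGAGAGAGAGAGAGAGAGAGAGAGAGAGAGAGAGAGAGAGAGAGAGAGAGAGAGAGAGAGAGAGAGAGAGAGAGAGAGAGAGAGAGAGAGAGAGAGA
chr12:110387223-110387372: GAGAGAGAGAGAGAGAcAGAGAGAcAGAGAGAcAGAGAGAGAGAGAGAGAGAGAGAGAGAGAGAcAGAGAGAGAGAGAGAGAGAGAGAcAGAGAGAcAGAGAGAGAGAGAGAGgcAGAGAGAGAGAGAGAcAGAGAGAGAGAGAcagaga
Of the 150 bases, 144 were capitals in the TRERF1 window and 135 in the ANAPC7 window, where single bases break the runs.

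The next windows show 1 of the 3 regions in MAL, with unit ACTC, and the region that lies 120 bases from the 5′ end of GOLM2, with unit AG. Uninterrupted copies of the unit are again in capitals.
chr2:95038468-95038617: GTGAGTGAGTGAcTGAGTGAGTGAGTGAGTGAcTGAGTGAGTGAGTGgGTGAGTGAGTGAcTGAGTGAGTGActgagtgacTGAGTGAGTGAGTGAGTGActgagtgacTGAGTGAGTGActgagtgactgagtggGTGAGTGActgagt
chr15:44288441-44288590: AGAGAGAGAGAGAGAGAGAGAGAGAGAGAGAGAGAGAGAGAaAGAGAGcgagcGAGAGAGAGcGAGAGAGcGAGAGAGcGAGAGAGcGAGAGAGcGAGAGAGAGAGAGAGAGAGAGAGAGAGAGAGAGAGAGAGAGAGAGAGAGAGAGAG
Capitals made up 70.7% of the MAL window and 92.7% of the GOLM2 window.

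The last windows come from regions without a short unit. In the first, from the group of regions at 143 Mb of chromosome 1, capitals mark GGAAT or its complement. The second, from YWHAE, had no unit by the criteria used and is in lower case.
chr1:143231354-143231503: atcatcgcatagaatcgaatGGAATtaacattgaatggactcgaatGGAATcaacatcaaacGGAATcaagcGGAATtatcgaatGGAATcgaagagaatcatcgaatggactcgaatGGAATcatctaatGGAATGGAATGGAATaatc
chr17:1355022-1355171: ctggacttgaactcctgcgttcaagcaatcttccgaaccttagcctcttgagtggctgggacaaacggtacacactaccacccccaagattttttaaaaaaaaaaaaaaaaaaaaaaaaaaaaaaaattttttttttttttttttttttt
Copies of GGAAT took up 45 of the 150 bases of the chromosome 1 window, and the YWHAE window ends in a run of A followed by a run of T.

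Recurrence was mostly complete. Of the 268 regions, 166 had an interval in all 4 lists, 47 in 3 and 55 in 2. An interval in a KMT2D list and in an EBF2 list was present in 258 regions, and an NC and a KMT2D-KD list were both represented in 249. Any region in 3 or 4 lists holds both targets and both conditions by construction, so only the 55 regions in 2 lists could vary. Among these, 7 were in the EBF2 lists alone and 3 in the KMT2D lists alone. By condition, 14 were in the KMT2D-KD lists alone and 5 in the NC lists alone. The most frequent pattern short of all 4 lists was absence from the NC KMT2D list alone, in 27 regions. Of the KMT2D intervals, recurring regions held 202 of 238 from NC (84.9%) and 241 of 318 from KMT2D-KD (75.8%). Of the EBF2 intervals they held 240 of 293 from NC (81.9%) and 239 of 311 from KMT2D-KD (76.8%). Their median width was 305.5 bases, from 167 to 1509, against 189 bases for regions in 1 list. A recurring region is the union of its overlapping intervals, so merging can only widen it and the 2 medians are not like for like. The intervals themselves had median widths between 228 and 277.5 bases in the 4 lists.

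Short tandem repeats were the most frequent class under the criteria used. A unit of 1 to 6 bases was called when a tandem tract with that period covered at least 50% of the region, and this held for 181 of 268 regions (67.5%; exact 95% interval 61.6% to 73.1%). A unit of 7 to 400 bases was found in 45 regions (16.8%, 12.5% to 21.8%), and 42 regions (15.7%, 11.5% to 20.6%) had no tandem unit. The short-unit share was 75.3% (68.0% to 81.7%) in all 4 lists, 55.3% in 3, 54.5% in 2 and 28.6% (22.9% to 34.8%) in 1 list. Among regions in 1 list, 123 of 238 had no tandem unit. These intervals cover counting error only, and the call depends on how many mismatches a tract may hold, since a mismatch penalty of 4 in place of 2 lowered the short-unit share to 33.2%, a minority of the regions.

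**Figure D1:**
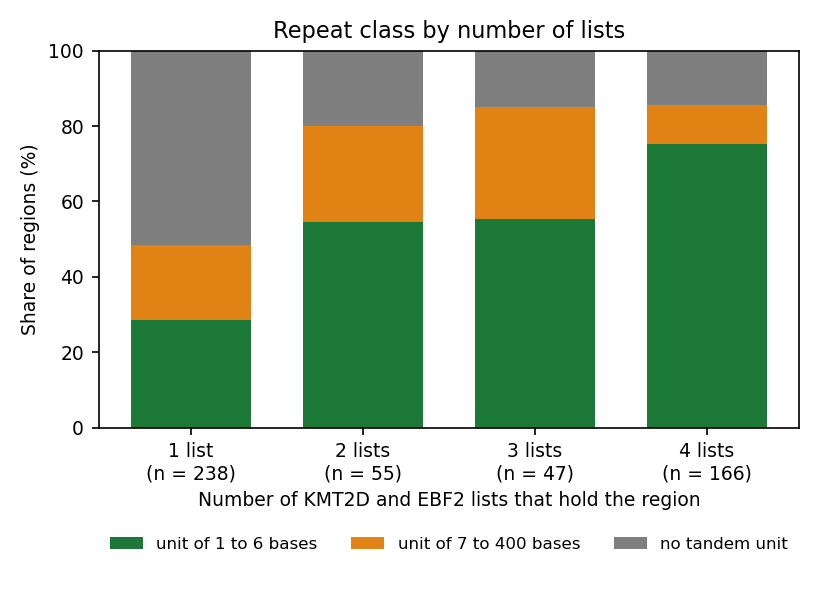
Share of regions (%, vertical axis) with a unit of 1 to 6 bases, a unit of 7 to 400 bases or no tandem unit, by the number of KMT2D and EBF2 lists that hold the region. The short-unit share is 28.6% in 1 list, near 55% in 2 and 3 lists and 75.3% in all 4.

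The tracts were long and imperfect. Short-unit tracts had a median of 98 copies, from 31.2 to 754.5, and a median of 82.0% of positions matched the base 1 unit earlier. The tract covered a median of 98.9% of the region. The median length of the hg38 tracts in recurring regions (of at least 100 bases) was 548 bases for ACC, 284 for AG and 449 for ATC. Median region widths for these units were 456, 290 and 490 bases. These medians come from different sets, so they do not show whether a tract ran past its interval. Short-unit tracts of at least 50 bases covered on average 75.1% of positions within 20 bases of the summits of recurring regions, and 5.68% of positions at 900 to 1000 bases. In regions of 1 list the values were 35.6% and 2.68%. At the NC H3K4me1 summits the shares were 0.354% near the summit and 0.404% farther out, and KMT2D-KD had 0.447% and again 0.404%, close to the 0.469% of hg38 bases that such tracts cover.

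**Figure D2:**
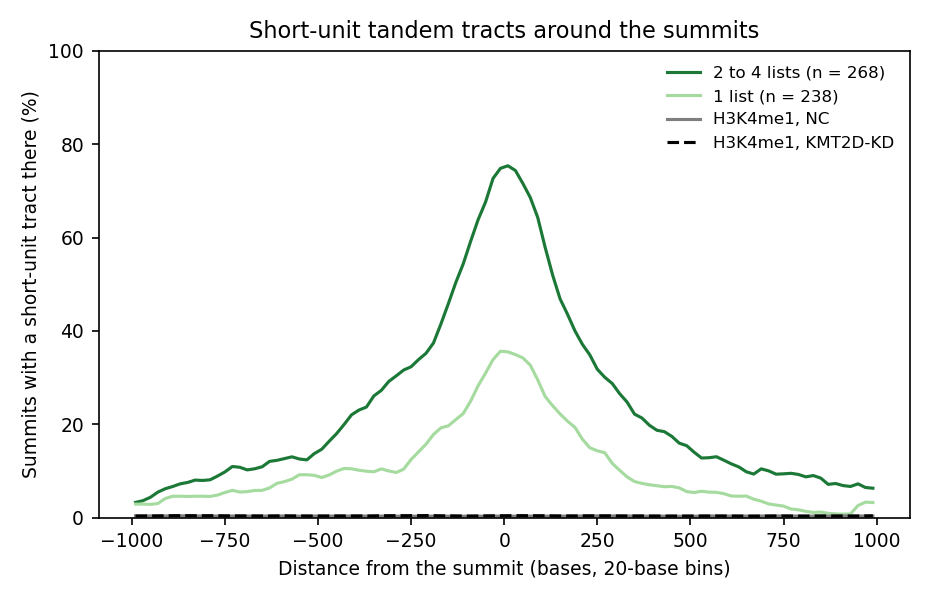
Percentage of summits (vertical axis) with a short-unit tandem tract of at least 50 bases at each distance from the summit (bases, horizontal axis, bins of 20 bases), for regions in 2 to 4 lists, regions in 1 list and the H3K4me1 intervals of both conditions. The curve of the 268 recurring regions peaks at the summit, that of regions in 1 list peaks there at a lower level, and both H3K4me1 curves lie flat near 0.4%.

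The units were few and unevenly represented. The 181 short-unit regions used 20 different units (each taken with its rotations and its complement). AG, which reads CT on the other strand, accounted for 62 regions, 45 of them in all 4 lists. ACC followed with 20 regions, the chromosome-end repeat AACCCT with 19, AC with 13, ACAGAG with 10, and ATC and ACCATC with 7 each. By length, 75 regions had units of 2 bases, 35 of 3, 19 of 4, 9 of 5 and 43 of 6. Units made of A and G alone on 1 strand were present in 83 regions (45.9%), none had a unit of A and T alone, and none of the units held a CpG. The larger of the purine and pyrimidine shares of 1 strand had a median of 95.4% in AG regions, 66.0% in ACC and 54.6% in AC regions.

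The order of units in the lists was not the order in the genome. In hg38, tracts of at least 200 bases were most often AT (2625) and AAAG (2577), and no tract of either unit lay in a recurring region, which allows a share of up to 0.114% and 0.116%. Of 222 AG tracts of that length, 57 lay in a recurring region (25.7%, 20.1% to 31.9%). The share was 37.5% (24.0% to 52.6%) for AACCCT, 26.0% (14.6% to 40.3%) for ACAGAG, 15.3% (9.75% to 22.5%) for ACC and 10.3% (4.84% to 18.7%) for ATC. AC tracts, with 570 in the genome, had 11 in recurring regions (1.93%, 0.967% to 3.43%). Other units of A and G varied, with 5 of 30 tracts for AGAGG (16.7%, 5.64% to 34.7%), 3 of 32 for AGAGGG, 6 of 169 for AGG, 4 of 210 for AGGG, 1 of 290 for AAG and 1 of 898 for AAGG. Over all units the share was 176 of 11727 (1.5%).

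For AG, ACC and AC, longer tracts were represented more often. The share of AG tracts in a recurring region was 0.226% for lengths of 50 to under 100 bases, 1.32% up to 200, 19.5% up to 300, 28.0% up to 500 and 38.8% beyond. For ACC the shares ran from 0.274% to 22.8% over the same lengths, and for AC from 0.00798% to 5.66%. AATGG tracts showed no such order, with 0.295% from 100 to under 200 bases, 0.148% up to 300, 0.162% up to 500 and 0.625% beyond. AAAG tracts of 500 bases or more numbered 88 and AT tracts 376, and none of either was represented. A tract that hg38 holds at a given length may differ in length in SW1990 cells, and how reads that map to several places were treated is not given in the sources used here.

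Fold enrichments spanned 3 orders of magnitude. These values, the ratio of ChIP to background at the summit, entered the choice of regions through the peak calls and are given as a description. In the 202 recurring regions of NC KMT2D the fold ranged from 1.47 to 678 with a median of 9.11, and in KMT2D-KD KMT2D from 1.35 to 1020 with a median of 11.4. For EBF2 it ranged from 1.33 to 774 in NC (median 9.56) and from 1.61 to 980 in KMT2D-KD (median 11.6). The medians of regions in 1 list were between 4.65 and 5.86.

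**Figure D3:**
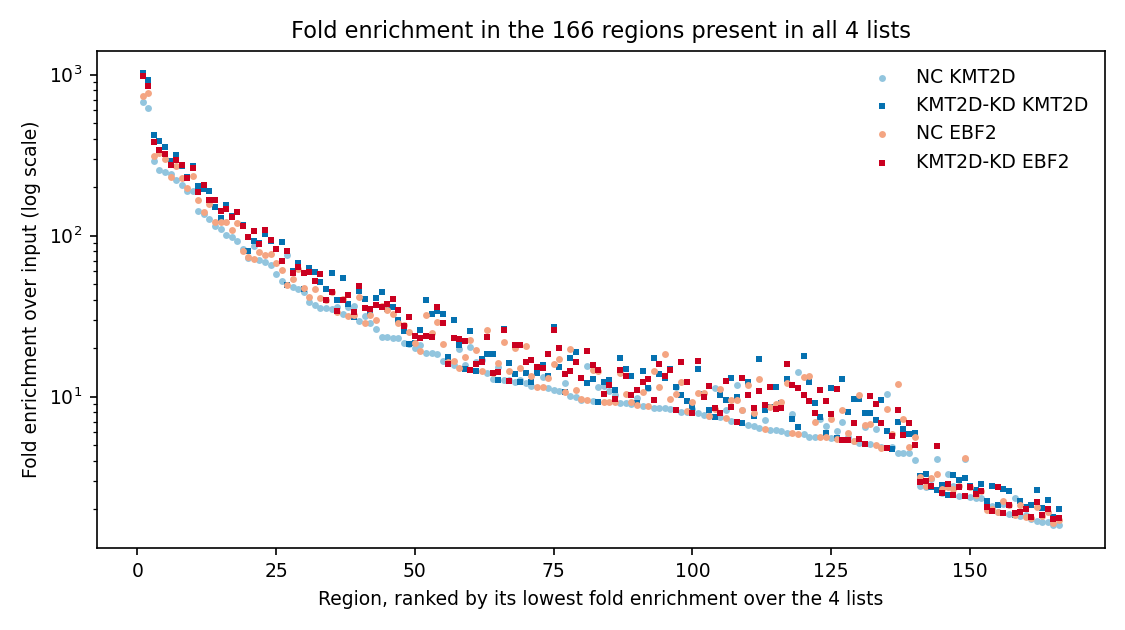
Fold enrichment over input (vertical axis, log scale) in each of the 4 lists for the 166 regions present in all of them, ranked by their lowest fold. The 4 values of a region lie close together across the whole range, from near 1000 to below 2, with the KMT2D-KD points mostly above the NC points among the strongest regions.

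Under the criteria used, the 12 regions with the largest lowest fold over the 4 lists were all short-unit repeats, 8 with the unit AG. With a mismatch penalty of 4, the regions in RFLNA and SNTG2 and the one on chromosome 15, given below, had no tandem unit. The region at chr7:157461262-157461689, 125881 bases from the 5′ end of DNAJB6, a co-chaperone gene, had fold enrichments of 678 in NC KMT2D, 1020 in KMT2D-KD KMT2D, 737 in NC EBF2 and 980 in KMT2D-KD EBF2. The region at chr6:42262429-42262612, in an intron of TRERF1, a zinc finger transcription regulator, had 617, 924, 774 and 852 in the same order. The third, at chr12:110387210-110387436, overlapped a non-coding exon of ANAPC7, a subunit of the anaphase-promoting complex, with 290, 423, 312 and 381. In each of these the 2 NC values were below the 2 KMT2D-KD values.

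The next regions of this rank had lower but still large values. An intron of SLC39A14, a zinc and manganese transporter gene, on chromosome 8 had fold enrichments of 255 in NC KMT2D, 386 in KMT2D-KD KMT2D, 328 in NC EBF2 and 340 in KMT2D-KD EBF2. An intron of KIAA1671 on chromosome 22 had 243, 293, 232 and 274. RFLNA, a gene named for a filamin partner, held an ACCATC repeat of 937 bases with 221, 319, 271 and 296. SNTG2, a syntrophin gene, held an ACAGAG repeat of 824 bases with 142, 203, 167 and 186. The other 5 lay outside protein-coding genes (the one on chromosome 15 in SLC30A4-AS1, an antisense gene), with the lowest fold at 249 on chromosome 14, 208 on chromosome 12, 189 on chromosome 15, 189 on chromosome 8 and 137 on chromosome 18.

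By unit, the medians of the fold were nearly level over the 4 lists for AG and differed more for other units. For AG regions they were 15.1 in NC KMT2D, 14.9 in KMT2D-KD KMT2D, 14.5 in NC EBF2 and 16.3 in KMT2D-KD EBF2. ACAGAG regions had medians of 35.8, 24.7, 33.5 and 34.1 in the same order, over 10 regions at most. For AACCCT the medians were 16.4, 25.5, 19.7 and 22.1, and for ACC 9.60, 7.54, 8.02 and 11.2. AC regions had medians of 7.99, 13.5, 11.1 and 11.4, and ACCATC regions 5.85, 9.92, 7.26 and 7.86. Each list contributes only the regions where it had an interval, so the sets differ between lists.

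Regions at the edge of the rule overlapped in strength with regions outside it. The recurring region with the lowest maximum −log10 q, at chr11:51912573-51912750, had a −log10 q of 1.4 for EBF2 in NC and 1.79 in KMT2D-KD, with a fold of 4.48 in the latter. The next had maxima of 3.11 (chr11:54406825-54407080) and 3.26 (chr20:58830256-58830533). Among regions in 1 list, the 3 with the highest −log10 q were all AG repeats of the KMT2D-KD KMT2D list. They lay at chr11:119743983-119744140 with a fold of 895, at chr2:198277465-198277713 in PLCL1 with 405, and at chr2:154577142-154577302 with 372. No other list had an interval there.

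Local background differed between the classes. From each fold enrichment and p-value the background expected at the summit was recovered and divided by the lowest background of its list, which is 1 where the input was not locally raised. The value of a region is the median over the lists that hold it. The background was at least 2 times the lowest in 105 of 268 regions (39.2%, 33.3% to 45.3%), against 52 of 238 regions in 1 list (21.8%, 16.8% to 27.6%). Among short-unit regions 49 of 181 passed this level (27.1%), among long-unit regions 31 of 45 (68.9%), and among regions with no unit 25 of 42 (59.5%). The median ratio was 1.51, 22.2 and 20.9 in these classes. At 10 times the lowest background the counts were 7 of 181, 25 of 45 and 23 of 42.

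**Figure D4:**
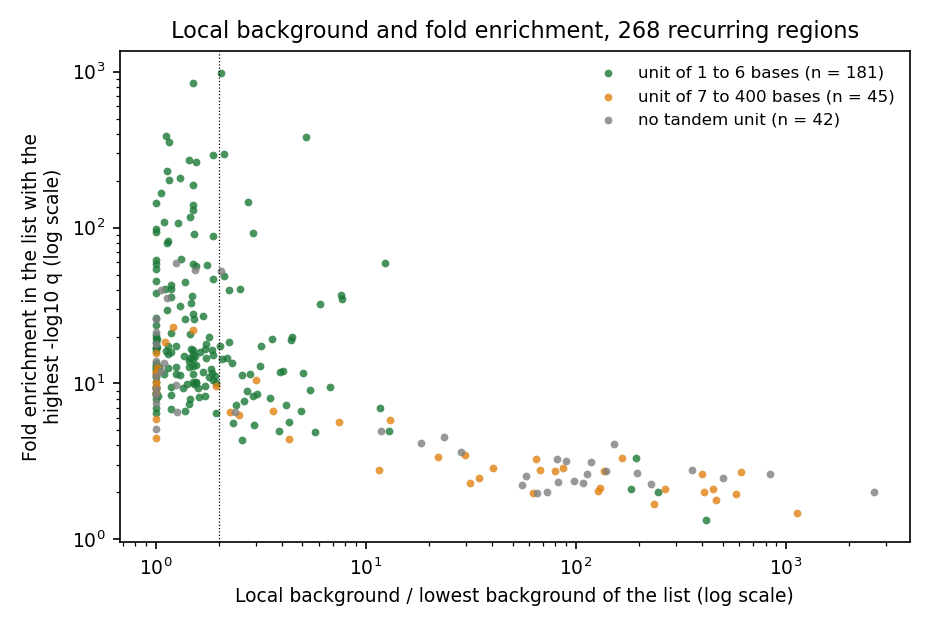
Fold enrichment in the list with the highest −log10 q (vertical axis, log scale) against the local background ratio (horizontal axis, log scale), 1 point per recurring region, coloured by repeat class. The background in each list was divided by the lowest of that list, and the median over the lists that hold the region is shown. Short-unit regions stand at the left with folds up to near 1000, while most points beyond 10 times the lowest background have no unit or a long one and folds below 5.

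Long-unit regions differed in their unit length and place. The unit length ranged from 8 to 342 bases, with a median of 170. The most frequent range was 7 to 59 bases, with 15 of the 45 regions. These had a median background ratio of 1.51 and a median lowest fold of 5.47. Another 7 regions had units of 160 to 179 bases and 7 of 330 to 349 bases, ranges that take in the alpha satellite monomer and dimer. Of these, 1 and 3 lay within 100 kb of a gap. A gap in the assembly lay within 100 kb of 20 of the 45 long-unit regions (44.4%) and 20 of the 42 without a unit (47.6%), against 27 of 181 short-unit regions (14.9%). Their lowest fold over the lists had medians of 2.91 and 3.29, against 9.33 for short units. GC content was also lower, with medians of 41.8% in long-unit regions, 46.9% without a unit and 52.9% with a short unit.

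Several of these formed groups. In all, 71 of the 268 regions lay within 100 kb of another, in 24 groups. The largest was on chromosome 1 from 143192828 to 143266836, where 14 regions without a short unit held a median of 5.24 copies of GGAAT or its complement per 100 bases. The lowest fold over the lists was between 1.82 and 2.77 in these 14, and their median background was 146 times the lowest. A group of 5 on chromosome 5 from 49599544 to 49661829 had folds of 1.43 to 2.75. Grouped short-unit regions were stronger, as in the pair on chromosome 15 from 45461448 to 45463944, with lowest folds of 92.9 and 189.

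A unit was lacking in 12 regions of all 4 lists that had no gap within 100 kb. They were not alike in strength or background. The regions at chr18:110272-110732, chrY:11312529-11312823 and chrY:11313394-11313747 had lowest folds of 1.91, 1.70 and 1.59. Their backgrounds were 196, 113 and 72.7 times the lowest. STKLD1, which encodes a kinase-like protein, held the strongest, at chr9:133382508-133383343, with fold enrichments of 37.0 in NC KMT2D, 59.4 in KMT2D-KD KMT2D, 47.0 in NC EBF2 and 52.6 in KMT2D-KD EBF2. The region in ZP4, an egg coat glycoprotein gene, had 28.5, 33.2, 32.05 and 35.3. TUBGCP3, a gamma-tubulin complex gene, had 12.7, 26.4, 21.9 and 25.9, YWHAE, a 14-3-3 protein gene, had 12.2, 10.8, 10.7 and 13.9, and CTNNA1, the alpha-catenin gene, had 9.08, 13.5, 9.22 and 10.2. As the YWHAE window shows, a region without a unit by these criteria can still be low in complexity.

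Recurring regions lay near chromosome ends more often than regions in 1 list. Within 5 Mb of an end, which takes in 7.77% of hg38, were 91 of 268 regions (34.0%, 28.3% to 39.97%) and 38 of 238 in 1 list (16.0%, 11.6% to 21.3%). Short-unit regions reached 42.0% (34.7% to 49.5%), long-unit regions 15.6% and regions without a unit 19.0%. The share of all 268 was 22.8% within 2 Mb and 44.4% within 10 Mb, where hg38 has 3.11% and 15.5%. Among units with at least 7 regions, AACCCT had 19 of 19 within 5 Mb, ACAGAG 9 of 10, ACCATC 6 of 7, ATC 4 of 7, AG 21 of 62, AC 3 of 13 and ACC 4 of 20.

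The telomeric unit was found both at the ends and inside. All 12 regions within 20 kb of a chromosome end had the unit AACCCT and an interval in all 4 lists, and they came from 11 chromosome arms. At the end of the long arm of chromosome 1 the fold was 26.2 in NC KMT2D, 41.1 in KMT2D-KD KMT2D, 30.1 in NC EBF2 and 37.1 in KMT2D-KD EBF2. Lower terminal values were found on chromosome 18, with 5.59, 8.01, 5.98 and 5.38, and on chromosome 7, with 4.47, 6.98, 12.1 and 8.26. The other 7 lay farther in. The strongest AACCCT region was one of these, at chr18:80262890-80263284, with 137, 195, 141 and 208. The background at the 12 terminal regions ranged from 1.11 to 12.4 times the lowest, and reads from other chromosome ends, whose sequence is near identical, cannot be told apart there.

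By chromosome, the number of regions per 10 Mb was highest on chromosome 22 (2.95, 15 regions), chromosome 21 (2.35, 11 regions) and chromosome 19 (1.88, 11 regions). It was lowest on chromosome X (0.257, 4 regions) and chromosome 3 (0.303, 6 regions). Chromosome 1 had the most regions, 28, of which 20 lay within 100 kb of a gap. On chromosome 22 this held for 7 of the 15 regions, on chromosome 21 for 5 of 11 and on chromosome 19 for 0 of 11.

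Genes hosted recurring regions mainly in introns. Of the 268, 81 lay in a protein-coding gene (30.2%, 24.8% to 36.1%), 80 in introns and 1 in the non-coding ANAPC7 exon. Regions in 1 list were similar, with 84 of 238 in a protein-coding gene (35.3%, 29.2% to 41.7%) and 77 in introns (32.4%). No recurring region overlapped a coding exon, which allows up to 1.12%, whereas 5 of 238 regions in 1 list did. The 81 regions fell in 81 genes, since some lie in overlapping genes and 3 genes held more than 1. Only 2 regions lay within 1000 bases of a protein-coding 5′ end, against 5 of those in 1 list. Of 20 AG regions in genes, 5 had the purine strand as the sense strand.

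The 3 genes with more than 1 region were MAL, MYT1L and CFAP46. MAL, which encodes a membrane proteolipid of lymphocytes and epithelia, held 3 ACTC repeats within 2.11 kb. Of these, chr2:95038413-95038804 had fold enrichments of 36.4 in NC KMT2D, 31.2 in KMT2D-KD KMT2D, 32.1 in NC EBF2 and 33.5 in KMT2D-KD EBF2, and chr2:95039115-95039532 had 21.1, 25.9, 19.1 and 23.2. The third was in the KMT2D lists alone, at 11.7 in NC and 8.92 in KMT2D-KD. MYT1L, a neuronal zinc finger factor, held an AG repeat with 82.6, 117, 80.3 and 115 and another with 11.7, 12.4, 9.33 and 10.4. CFAP46, a cilia and flagella protein gene, held 2 regions without a unit, the higher with 7.51, 10.2, 11.2 and 7.96.

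The pair near 5′ ends lay beside GOLM2 and COL6A1. At GOLM2, a Golgi membrane protein gene, chr15:44288398-44288599 had fold enrichments of 46.4 in NC KMT2D, 67.4 in KMT2D-KD KMT2D, 62.1 in NC EBF2 and 64.2 in KMT2D-KD EBF2, and no H3K4me1 interval in either condition. At COL6A1, a collagen VI chain gene, an ACAGAG repeat 668 bases from the 5′ end had 35.6, 51.6, 41.3 and 57.8, with an H3K4me1 interval in KMT2D-KD alone (fold 8.21).

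The 200 bases centred on each summit were searched for the EBF core CCCNNGGG, which is its own reverse complement. It was present in 2 of 268 recurring regions (0.746%, 0.0905% to 2.67%) and in 10 of 238 regions in 1 list (exact interval 2.03% to 7.59%). Among H3K4me1 intervals it was present in 3.74% in NC and 4.33% in KMT2D-KD. Uninterrupted copies of AG, AC or ATC cannot hold this word, since each lacks C or G on either strand. The sets therefore differ in how often the word could occur, and no share expected from base composition is given here. A match is a description of the letters and not a binding site.

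To see whether enrichment at these regions differed after KMT2D knockdown, the lists of each target were set side by side. Every region with an interval in both lists of a target is recurring by the rule, so the counts are a description and nothing is read from them. The KMT2D fold was higher in KMT2D-KD in 148 of 180 regions (82.2%, 75.8% to 87.5%), with a median log2 ratio of 0.34 (from -1.15 to 1.60). The EBF2 fold was higher in 146 of 209 (69.9%, 63.1% to 76.0%), with a median log2 ratio of 0.15 (from -0.91 to 1.09). Taken as recovered fragments relative to the lowest background of the list, the medians were 0.50 for KMT2D, with 159 of 180 regions higher, and 0.22 for EBF2, with 158 of 209 higher. The median KMT2D log2 fold ratio was 0.40 in short-unit, 0.17 in long-unit and 0.24 in regions without a unit, and for EBF2 it was 0.22, -0.04 and 0.05.

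Many of these differences lay within counting error. For KMT2D the counting interval of the fragment ratio lay above 0 in 84 of 180 regions and below 0 in 3, and for EBF2 in 44 and 1 of 209. Among the regions in all 4 lists, 113 of 166 were higher in KMT2D-KD for both targets by fragments, 3 were lower for both and 50 went opposite ways. By unit, the KMT2D fold was higher in 43 of 47 AG regions, 15 of 17 AACCCT regions, 7 of 7 ACAGAG regions and 9 of 16 ACC regions. For EBF2 the counts were 43 of 53, 12 of 18, 6 of 8 and 14 of 16. All 4 lists share 1 input. The lowest background, by which the fragments were divided, was 0.856 in KMT2D-KD against 1.13 in NC for KMT2D. For EBF2 it was 1.01 against 1.14. This value follows a library's depth and its fragment length, and the fragment ratios do not separate the 2. With the narrowest interval taken as the fragment length, it was 5.45 fragments per kb in KMT2D-KD against 6.43 in NC for KMT2D. For EBF2 the values per kb were 6.12 and 6.84.

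**Figure D5:**
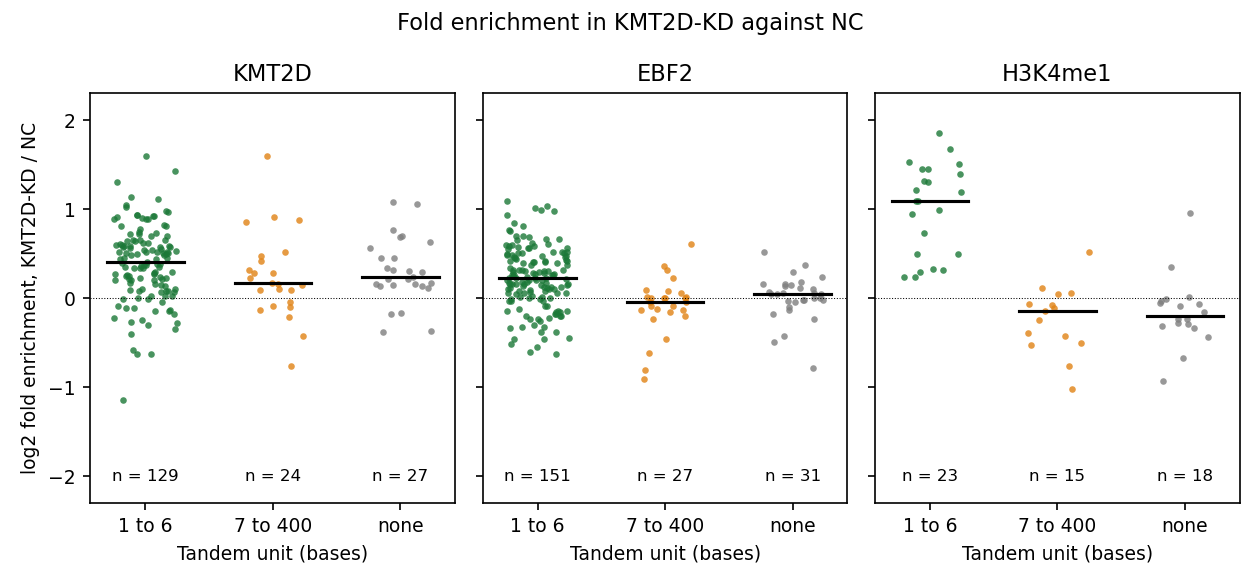
Log2 ratio of the fold enrichment in KMT2D-KD to that in NC (vertical axis) for KMT2D, EBF2 and H3K4me1 (panels), 1 point per recurring region with an interval in both lists, by tandem unit length (horizontal axis). Black bars are medians. H3K4me1 ratios lie above 0 in all 23 short-unit regions and mostly below 0 in the other classes.

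The largest KMT2D differences were at the following regions. At chr13:90314291-90314602, an AC repeat, the recovered KMT2D fragments numbered 13 in NC against 31 in KMT2D-KD. Relative to the lowest background of each list, the log2 ratio was 1.66 (counting interval 0.68 to 2.71). An ATC repeat at chr17:79893692-79894181 had 19 and 41 fragments (1.51, 0.69 to 2.38), and a region without a unit at chr19:3310041-3311329, 3074 bases from NFIC, had 39 and 79 (1.42, 0.85 to 2.01). EBF2 at these 3 had log2 ratios of -0.18, -0.09 and -0.44, each with an interval that takes in 0. The lowest KMT2D ratio was -0.70 (-1.52 to 0.08), at chr10:40980968-40981287, a repeat of 340 bases.

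For EBF2, the ACC repeat at chr21:31784637-31785356, 52519 bases from SCAF4, had the largest ratio. It had 45 EBF2 fragments in NC against 92 in KMT2D-KD (log2 ratio 1.21, 0.68 to 1.76), while its KMT2D fragments were 83 and 40 (-0.65, -1.23 to -0.09). ACC repeats were also at the next ranks, with 0.92 (0.30 to 1.55) at chr16:27138961-27139302 and 0.89 (-0.27 to 2.12) at chr6:1478153-1478403. The lowest EBF2 ratio was -0.89 (-2.14 to 0.26) at chr3:96673133-96673492, from 21 and 10 fragments.

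H3K4me1, which the choice of regions did not use, was present at a minority of them. An H3K4me1 interval overlapped 70 of 268 regions in NC (26.1%, 21.0% to 31.8%) and 100 in KMT2D-KD (37.3%, 31.5% to 43.4%), and regions in 1 list had 10.1% and 10.5%. The share differed by condition mainly in 1 class. Short-unit regions had an interval in 24 of 181 in NC (13.3%, 8.68% to 19.1%) and 57 in KMT2D-KD (31.5%, 24.8% to 38.8%), with 34 of the 58 marked regions marked in KMT2D-KD alone and 1 in NC alone. Long-unit regions had 23 and 20 of 45, and regions without a unit 23 and 23 of 42. Over all 108850 merged H3K4me1 regions, 45.2% had an interval in KMT2D-KD and not in NC. The share was 38.6% of the 114 marked recurring regions, with 58.6% for short-unit and 17.9% for each other class. These class shares rest on 58 marked short-unit regions and 28 in each other class, and no interval was computed for them.

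H3K4me1 fold differed in the same class. Of the 39989 merged H3K4me1 regions with intervals in both conditions, 15.4% had a fold at least 1.5 times higher in KMT2D-KD, and 3.0% at least 1.5 times lower. In short-unit recurring regions 16 of 23 were at least 1.5 times higher (69.6%) and 23 of 23 were higher, with a median ratio of 2.13 (1.18 to 3.61). None of 15 long-unit regions and 1 of 18 without a unit reached 1.5 times, and their median ratios were 0.907 and 0.874. At the chr7 AG region the H3K4me1 fold was 55.3 in NC and 138 in KMT2D-KD. In ANAPC7 it was 22.3 and 61.2, in RFLNA 27.1 and 62.0, and in SNTG2 9.19 and 26.1. TRERF1 had a fold of 233 in KMT2D-KD and no interval in NC. These are the repeats at which the KMT2D and EBF2 folds were also higher in the KMT2D-KD libraries, and whether the knockdown or the libraries carry the difference cannot be told apart with 1 library each.

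The recurring regions took the top ranks of the H3K4me1 lists as well. Of the 10 H3K4me1 intervals with the highest −log10 q, 9 in NC and 10 in KMT2D-KD lay in a recurring region. Among the top 100 the counts were 36 and 35, and among the top 1000 they were 44 and 51. Of the whole lists, 70 of 64843 intervals (0.108%) lay in a recurring region in NC, and 102 of 92135 (0.111%) in KMT2D-KD. The highest H3K4me1 fold was 55.3 inside against 37.7 outside recurring regions in NC, and 233 against 35.7 in KMT2D-KD. The NC medians were 3.21 inside and 4.16 outside, and those of KMT2D-KD were 5.45 and 4.17.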

How the data were processed

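ChIP-seq was analysed from the 6 deposited interval lists of 7 samples (3 targets in each of 2 kinds of SW1990 cells, and 1 input without a list). According to the study's methods the authors cleaned the reads of adapters, poly-N and low quality by perl scripts of their own before alignment by BWA. The submitters' processing notes name hg38, MACS2 and HOMER. Versions and the handling of multiply mapped or duplicate reads are not given in the sources used here. The condition of the input cells is not given by the labels.

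The fold enrichment (a ratio of ChIP to background at the summit) and the −log10 p-value and −log10 q-value of each interval were used as deposited by the authors. Depth is given only through the summit: fragments and expected background were solved from each fold and p-value under a Poisson model with a pseudocount of 1. Of the fragment numbers, 100% came out whole within a tolerance, the larger of 0.01 and a share of 0.0001 of the number. That tolerance is loose for the largest numbers. The lowest background of a list stood for its depth, although it also follows the fragment length. Intervals sharing at least 1 base were merged, and regions of at least 2 lists were kept. Where 1 list had several intervals in a region, as in 5 recurring regions, the values of the interval with the highest −log10 q were used. Tandem tracts were scored as runs equal to the base 1 unit earlier (match 1, mismatch 2, 50% of the region). At least 3 copies were required for units of 1 to 6 bases and at least 2 for units of 7 to 400 bases. Units over 60 bases were searched with 500 bases added at either side of the region. Units of 1 to 6 bases were called short. Genes were from GENCODE release 44 and gaps of at least 1000 bases from hg38. Shares carry exact 95% intervals (Clopper-Pearson) for counting error alone, and a count of 0 was given the limit of 3 counts. Regions were named when they had 1 of the 12 largest lowest folds, lay in a coding exon or within 1000 bases of a 5′ end, led 1 of the 6 commonest units, had 1 of the 3 largest or smallest KMT2D-KD to NC ratios, lay nearest the limit of the rule, shared a gene, or were in all 4 lists without a unit or a near gap. Members and tests were chosen with earlier results of these data known. The scripts, tested on simulated data, used Python 3.11.15, NumPy 2.4.6, pandas 2.3.3, SciPy 1.17.1 and pysam 0.24.0. Sequences of some regions are not reported here.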

Additional observations from a re-analysis of the deposited data

Results flagged for a closer look

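Of the 50 regions of all 4 lists in which the targets went opposite ways between NC and KMT2D-KD by recovered fragments, 3 of the named ones did so by at least 1.5 times for each target. At chr12:130584238-130584568 in RIMBP2 the log2 ratio of KMT2D-KD to NC was 1.12 for KMT2D and -0.59 for EBF2, a difference (EBF2 minus KMT2D) of -1.71. At chr21:31784637-31785356, an ACC repeat, it was -0.65 for KMT2D and 1.21 for EBF2, a difference of 1.86. At chr3:96673133-96673492, with a unit of 97 bases, it was 1.17 for KMT2D and -0.89 for EBF2, a difference of -2.06. With 1 library per arm none of these differences was tested, and the fragments behind them number between 10 and 92.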

How the results depend on the processing

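Of 41 alternatives, 24 left a share within its counting interval or a count within 1.5 times, and 17 moved it. A reversal was looked for only in the shares of regions with higher KMT2D or EBF2 enrichment in KMT2D-KD, and none was found there. Keeping regions of all 4 lists left 166 in place of 268 regions, with 75.3% short units, 10.2% long units and an H3K4me1 interval in KMT2D-KD in 46.4%. The short-unit share was 73.1% with a tract over 30% of the region and 33.2% with a mismatch penalty of 4, which leaves short units a minority. In short-unit regions alone, 13.3% had an H3K4me1 interval in NC and 31.5% in KMT2D-KD, and EBF2 fold was higher in KMT2D-KD in 76.8%. An H3K4me1 −log10 q of at least 5 gave 30.2% in KMT2D-KD. The share near chromosome ends was 22.8% within 2 Mb and 44.4% within 10 Mb. With all annotated genes 42.5% lay in a gene, and with exons alone 0.373%. By recovered fragments KMT2D was higher in KMT2D-KD in 88.3%. Raised background held for 56.7% at 1.5 times and 26.5% at 4 times the lowest. The moves by region set or distance follow from how those alternatives are built, and for the others the cause was not tested. With 1 library per arm no library could be left out. No paired analysis was possible because each target had 1 library per condition and no result came from a test.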
